A study of Mus musculus with 2 samples.

Results

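A set of 10 genes that restrain or read out signalling through the ERK kinases was followed in colonies and organoids grown from mammary basal cells. These were the phosphatases Dusp1, Dusp4, Dusp5 and Dusp6, and the Sprouty genes Spry1, Spry2 and Spry4. The others were the Sprouty-related genes Spred1 and Spred2 and the transcription factor Etv5. The 10 genes were found by name, and all had a row among the 49492 genes of the deposited count table. All passed a filter of at least 10 reads over both libraries, which 19233 genes passed. Basal cells sorted from mammary glands of adult female wild-type mice were grown in a 3D matrix. They were grown without macrophages (ctrl, 1 library) or in wells shared with M2-like macrophages (M2, 1 library). Co-culture took 11 to 14 days, whereas the range given for 3D colonies in general starts earlier. The days of the ctrl culture sequenced here are not stated. The methods state that the macrophages came from bone marrow, were polarised with IL-4 and IL-13, and sat in a porous insert that was put into the well. They also state that the basic medium held EGF, a ligand that switches on the ERK route, so a stimulus of this route was given to both groups.

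Each group is 1 library, so the spread between cultures is unknown, and an effect of the macrophages cannot be told apart from any other difference between these cultures. The ctrl library held 26912610 reads in genes and the M2 library 29413844. The basal markers Krt5, Krt14 and Trp63 and the luminal markers Krt8 and Krt18 each had at least 5445 reads in both libraries. Both lineages thus contributed RNA. The paper reports by flow cytometry that such cultures were mostly luminal cells in both groups, with a larger basal share after co-culture. In such bulk RNA, fewer cells of a type and less RNA per cell cannot be told apart. The macrophage genes Adgre1, Tyrobp, Fcer1g, Ptprc and Chil3 had 0 reads in both libraries, whereas Csf1r had 94 in ctrl and 92 in M2, Cd68 had 170 and 165, and Arg1 had 1507 and 2090.

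Growth factor receptors pass their signal through Ras, Raf and MEK to the kinases ERK1 and ERK2, which enter the nucleus and switch on transcription. Among the genes switched on are inhibitors of the route itself. Dual-specificity phosphatases (Dusp) strip the activating phosphates from MAP kinases, Sprouty proteins hinder the relay between receptor and Raf, and Spred proteins bring the Ras-inactivating protein neurofibromin to the membrane. Because several of these transcripts are made when ERK is active and are short-lived, they are often read as a gauge of the route. The paper reports from Western blots that co-culture with M2 could switch on PI3K signalling by way of the kinases AKT and ERK. It adds that a PI3K inhibitor reduced the phosphorylation of both. Only RNA was counted here, and the activity of ERK was not tested. In the mammary gland, signals of this kind steer branching of the ducts, in which Sprouty genes act as brakes.

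The stretches before the start of transcription are shown for the 3 genes with at least 2-fold fewer reads in M2 (Dusp1, Spry1 and Spry2). For contrast, Dusp5 is shown, which did not share that direction. Spred2 did not share it either and is left out. Each stretch shown is the 250 bases upstream of the RefSeq start on GRCm38.p6, read 5′ to 3′ on the strand of the gene. They lie at chr17:26508473-26508722 (minus strand) for Dusp1, chr3:37639697-37639946 (plus) for Spry1, chr14:105896820-105897069 (minus) for Spry2 and chr19:53528895-53529144 (plus) for Dusp5. As counted, Dusp1 begins at 26508519 and Dusp5 at 53529109, so their stretches reach into the counted gene. Capitals mark a cAMP response element (CRE, the letters TGACGTCA) in Dusp1 and the CArG boxes, the sites bound by serum response factor, in Dusp5.
Dusp1: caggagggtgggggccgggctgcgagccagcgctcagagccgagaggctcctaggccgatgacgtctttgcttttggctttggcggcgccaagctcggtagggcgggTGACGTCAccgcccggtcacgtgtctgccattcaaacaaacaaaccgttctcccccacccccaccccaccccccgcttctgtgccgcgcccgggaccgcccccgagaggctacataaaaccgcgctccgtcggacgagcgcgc
Spry1: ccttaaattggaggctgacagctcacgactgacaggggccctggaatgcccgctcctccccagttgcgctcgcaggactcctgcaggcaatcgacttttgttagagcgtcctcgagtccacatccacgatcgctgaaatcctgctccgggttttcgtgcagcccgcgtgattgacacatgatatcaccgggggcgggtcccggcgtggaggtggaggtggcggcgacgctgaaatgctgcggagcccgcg
Spry2: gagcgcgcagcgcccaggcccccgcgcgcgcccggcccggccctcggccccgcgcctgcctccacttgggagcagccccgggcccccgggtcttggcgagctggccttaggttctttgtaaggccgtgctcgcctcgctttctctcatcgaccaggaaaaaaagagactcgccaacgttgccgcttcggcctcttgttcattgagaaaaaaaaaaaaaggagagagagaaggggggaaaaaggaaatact
Dusp5: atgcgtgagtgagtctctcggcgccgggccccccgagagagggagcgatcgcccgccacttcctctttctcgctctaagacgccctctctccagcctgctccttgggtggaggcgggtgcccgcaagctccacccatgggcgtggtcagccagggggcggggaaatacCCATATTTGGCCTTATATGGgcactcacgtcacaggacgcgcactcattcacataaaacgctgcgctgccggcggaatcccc

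Promoter windows (250 bases before the start and 50 after) were held for 8 of the 10 genes, all but Dusp4 and Spry4, with a pair of windows for Etv5. The CRE was found in 1 of these genes, Dusp1, from 143 to 136 bases before its start, and in 1.79% of 32851 mouse windows. A CArG box (CC, then A or T at each of 6 places, then GG) was found only in Dusp5, which has a pair of them from 82 to 73 and from 72 to 63 bases before the start, and in 1.63% of all windows. No window of these genes held the ETS letters CCGGAAGT (3.89% of all windows) or the AP-1 letters TGANTCA (7.81%), searched on both strands. A loose NF-kB pattern, GGG and CC set apart by any 5 bases, was present in all 8 genes and in 50.8% of all windows. The windows of these genes were 57.0% to 74.0% G and C, against a median of 52.7% for all windows. Such matches describe letters in a window and say nothing on binding in these cells.

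Read counts were scaled with TMM (trimmed mean of M values) to CPM (reads per 1000000 scaled reads), and a log2 ratio is that of M2 over ctrl, with a pseudocount of 1 read and a 95% Clopper-Pearson interval that covers counting error only. A gene was called when it differed at least 2-fold with an adjusted p under 0.05 in a two-sided exact binomial test of its reads, which compares these libraries and not the conditions. Of the 10 genes, 1 was called higher in M2 (Dusp4) and 3 were called lower (Dusp1, Spry1 and Spry2). Across all genes tested, 8.16% were called higher and 6.55% lower, and by the 2-fold limit alone the shares were 9.53% and 7.82%. The median log2 ratio of the 10 genes was -0.44, against -0.0032 for all genes tested, where the quartiles lay at -0.32 and 0.35. The 10 genes were chosen with earlier results of these libraries known, so their count and median describe them and give no test.

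**Figure D1:**
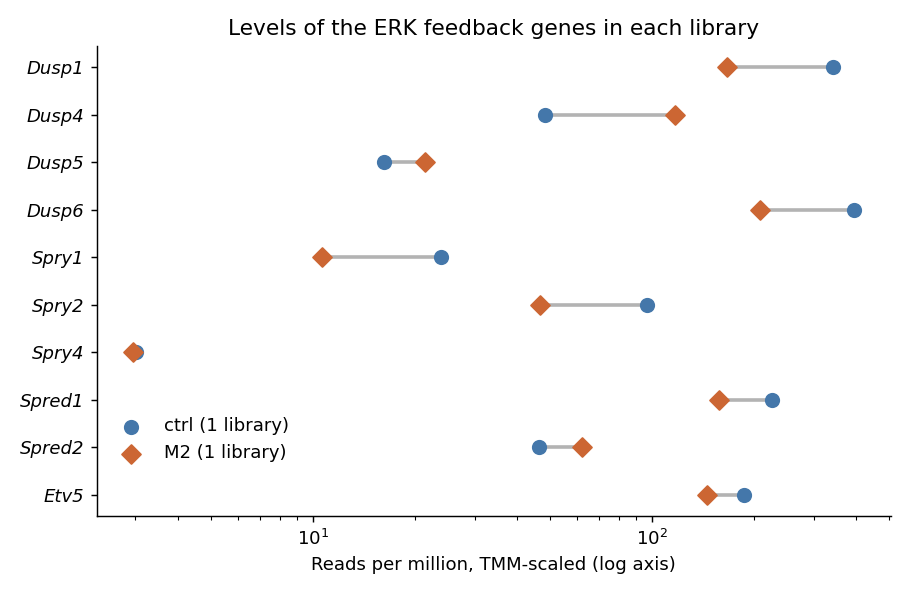
Level of each gene in the ctrl library (circles) and the M2 library (diamonds), in TMM-scaled CPM on a log axis. Dusp6 and Dusp1 stand highest in both libraries, Spry4 lowest, and Dusp4 moves to the right where Dusp1, Dusp6, Spry1 and Spry2 move to the left.

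The calls rest on counting error, and a spread between cultures had to be assumed to go further. In the exactTest of edgeR and a biological coefficient of variation set at 0.2, Dusp4 was still called (adjusted p = 0.0308), and Dusp1, Spry1 and Spry2 were not (adjusted p = 0.113, 0.0688 and 0.115). Under that assumption 5.01% of all genes were called higher and 3.59% lower. With the coefficient set at 0.4, none of the 10 genes was called, and the shares over all genes were 0.91% and 0.676%. At an adjusted p under 0.05 with no limit on the fold, the binomial test separated the libraries at 9 of the 10 genes and at 53.1% of all genes, so that count says little about these 10.

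Dusp6 (chromosome 10, 99263231 to 99267488) codes for the cytoplasmic phosphatase that acts on ERK and hardly on the related kinases JNK and p38. It had 10860 reads in ctrl and 5992 in M2, or 395 and 208 CPM. The M2 library was lower, with a log2 ratio of -0.93 (95% interval -0.97 to -0.88), just short of the 2-fold limit, and the gene was not called. Of the 14590 genes with at least 1 CPM in both libraries, 4.59% had a lower ratio.

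Dusp1 (chromosome 17, 26505590 to 26508519) is an immediate early gene whose product works in the nucleus on p38 and JNK as well as ERK. Its reads were 9423 in ctrl and 4804 in M2, or 343 and 167 CPM. This was a log2 ratio of -1.04 (-1.09 to -0.99), 2.06-fold lower in M2, and just past the limit that Dusp6 missed. The ratio between the 2 genes hardly differed between libraries: the log2 change of Dusp1 over Dusp6 was -0.11 (-0.18 to -0.05), a quantity that does not depend on the scaling.

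Dusp4 (chromosome 8, 34807297 to 34819894), a nuclear phosphatase closely related to Dusp1, went the other way. It had 1328 reads in ctrl and 3377 in M2, or 48.4 and 117 CPM. The log2 ratio was 1.28 (1.19 to 1.37), 2.42-fold higher in M2. Among the 10 genes it was the only one past 2-fold in this direction, and 96.3% of genes with at least 1 CPM in both libraries had a lower ratio. Dusp5 (chromosome 19, 53529109 to 53542431), which codes for a nuclear phosphatase that holds ERK there, had 447 and 618 reads, or 16.3 and 21.4 CPM. Its log2 ratio of 0.40 (0.22 to 0.58) was not called, although the interval lay above 0.

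**Figure D2:**
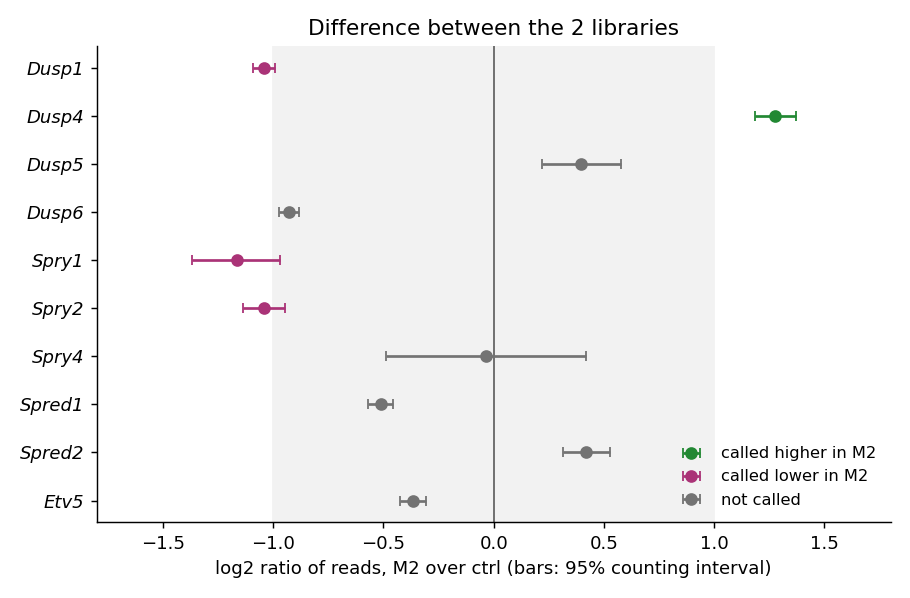
Log2 ratio of reads, M2 over ctrl, for each gene, with bars for the 95% counting interval and a grey band for differences under 2-fold. Dusp4 lies to the right of the band at 1.28, Dusp1, Spry1 and Spry2 lie at its left edge, and the interval of Spry4 alone crosses 0.

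These opposite directions changed the shares of the 4 Dusp genes in their joint level. Other Dusp genes are left out of these shares. Levels of different genes were compared per length, as CPM per kilobase (RPKM) with the gene length given in the table. In ctrl, Dusp6 (141 RPKM) and Dusp1 (127 RPKM) dwarfed Dusp4 (17.6 RPKM) and Dusp5 (6.58 RPKM). In M2 the levels were 74.4, 61.8, 42.8 and 8.67 RPKM, in the same order. Dusp4 thus took 6.03% of the reads per kilobase of these 4 genes in ctrl and 22.8% in M2. The share of Dusp1 was 43.4% and then 32.9%, and that of Dusp6 48.3% and then 39.6%. Dusp6 stood 8.01-fold above Dusp4 in ctrl and 1.74-fold above it in M2, a log2 change of Dusp4 over Dusp6 of 2.20 (2.10 to 2.31). Summed over these 4 genes, the level was 293 RPKM in ctrl and 188 RPKM in M2, since the genes with fewer reads were the abundant ones.

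**Figure D3:**
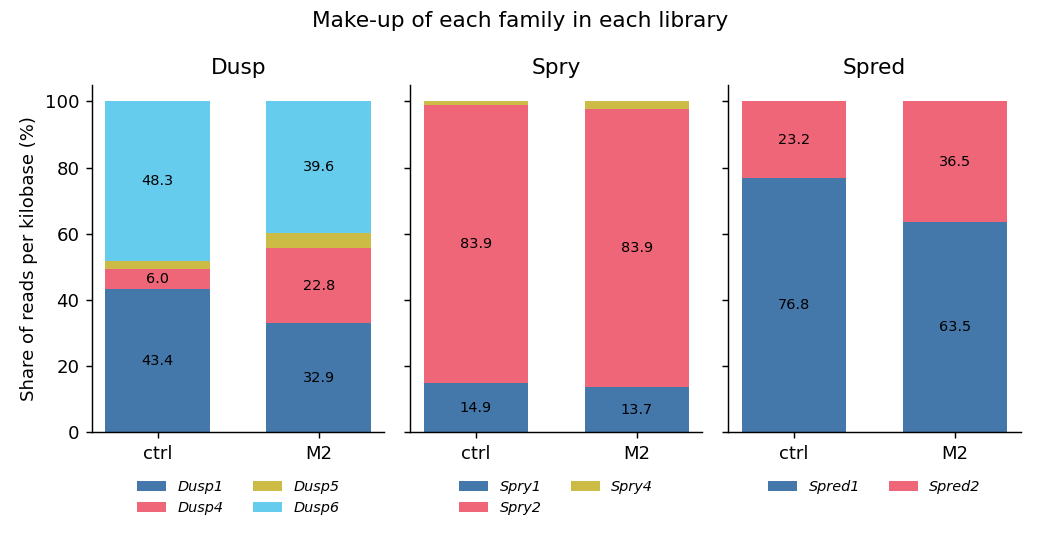
Share of each gene in the reads per kilobase of those of the 10 genes in its family (percent), for the ctrl and the M2 library. Dusp4 goes from 6.0% to 22.8% of the 4 Dusp genes and Spred2 from 23.2% to 36.5% of the Spred pair. Spry2 is 83.9% of the 3 Sprouty genes in both libraries.

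Spry2 (chromosome 14, 105891949 to 105896819), the most abundant of them here, had 2654 reads in ctrl and 1351 in M2, or 96.6 and 46.9 CPM. Its log2 ratio was -1.04 (-1.14 to -0.95), 2.06-fold lower in M2. Spry1 (chromosome 3, 37639947 to 37644598), an inhibitor that also limits branching in the kidney, had 657 and 307 reads, or 23.9 and 10.7 CPM. The log2 ratio of -1.16 (-1.37 to -0.97), 2.24-fold lower, was the lowest of the 10 genes. Spry1 overlaps 1 gene model on the other strand, with 85 and 59 reads, and since the use of strand is not given in the sources used here, a small part of its reads could belong there.

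The ratios of Spry1 and Spry2 did not differ from each other beyond counting error, as the log2 change of Spry1 over Spry2 was -0.12 (-0.34 to 0.09). Spry2 made up 83.9% of the reads per kilobase of the 3 Sprouty genes in both libraries, and Spry1 14.9% in ctrl and 13.7% in M2. The summed reads of the 3 genes were 124 CPM in ctrl and 60.5 CPM in M2, a log2 ratio of -1.03 (-1.11 to -0.95). Spry4 was scarce, with 83 and 85 reads, or 3.02 and 2.95 CPM. Its log2 ratio was -0.04 (-0.49 to 0.42, adjusted p = 0.926, exact binomial test), so the direction of its ratio was not resolved at this depth. Against Spry2, however, its ratio changed by 1.01 on the log2 scale (0.56 to 1.46), and the ratios of Spry1 and Spry2 lay outside the interval of Spry4.

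The Spred genes parted. Spred1 (chromosome 2, 117121374 to 117182279) gave 6195 reads in the ctrl library and 4557 in the M2 library, or 226 and 158 CPM, a log2 ratio of -0.51 (-0.57 to -0.46). Spred2 (chromosome 11, 19924375 to 20024026) had 1272 and 1787 reads, or 46.3 and 62.0 CPM, a ratio of 0.42 (0.32 to 0.53). Neither reached 2-fold. Per length Spred1 remained the more abundant, at 33.2 and 23.3 RPKM against 10.03 and 13.42 RPKM. The excess of Spred1 over Spred2 was 3.32-fold in ctrl and 1.74-fold in M2, a log2 change of Spred2 over Spred1 of 0.93 (0.82 to 1.05).

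Etv5 (chromosome 16, 22381309 to 22439719) codes for an ETS family transcription factor that is switched on by FGF and EGF signals through ERK, and so reads out the route rather than restraining it. It had 5138 reads in ctrl and 4181 in M2, or 187 and 145 CPM. The log2 ratio of -0.37 (-0.43 to -0.31) was 1.29-fold lower and not called. Its ratio lay nearer to 0 than that of Dusp6, and the log2 change of Etv5 over Dusp6 was 0.56 (0.49 to 0.64). The related genes Etv4 and Etv1, named here after their values were seen, had 876 and 1736 reads and 1716 and 998 reads. Their log2 ratios of 0.92 and -0.85 pointed in opposite directions, and neither was called.

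**Figure D4:**
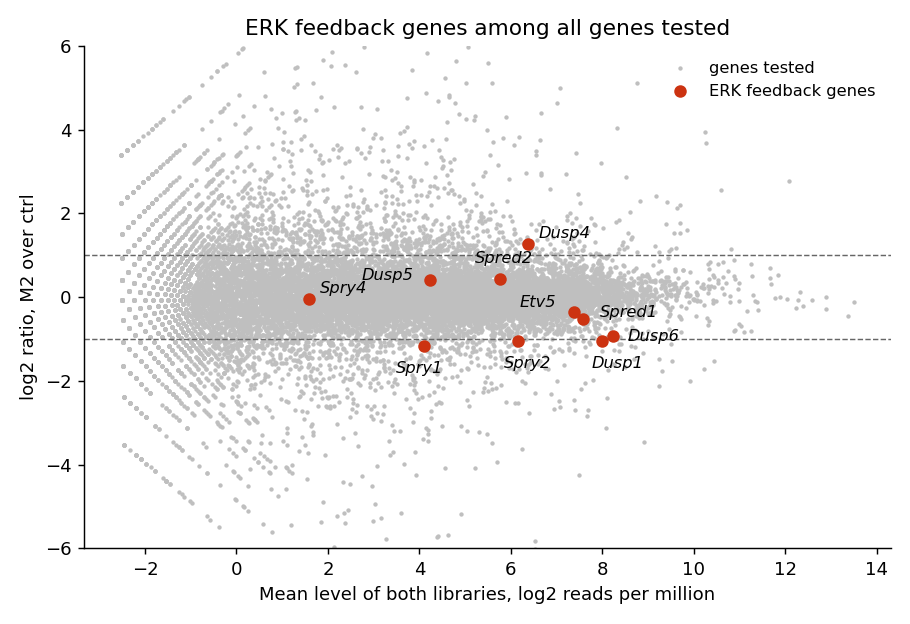
Log2 ratio of M2 over ctrl against the mean level of both libraries (log2 CPM) for all 19233 genes tested (grey) and the 10 ERK feedback genes (red), with dashed lines at 2-fold and 36 genes beyond the range drawn. The feedback genes lie within the cloud of all genes, with Dusp1, Dusp6, Spry1 and Spry2 along its lower side and Dusp4 along its upper side.

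The 10 genes were then set beside the rest of the route, in 6 lists of 103 genes that were chosen by function, of which 99 had enough reads. Other phosphatases of MAP kinases gave 1 gene called higher and 0 lower of 7, with a median log2 ratio of 0.28. The called gene was Dusp9, with 20 and 79 reads, named after its values were seen. A stricter filter, 1 CPM in each library, left Dusp9 untested and 0 genes called, with a median of 0.17, which was also the median with no filter. The most abundant per length were Dusp7, a cytoplasmic ERK phosphatase like Dusp6, and Dusp16. Dusp7 had 983 ctrl reads and 1992 M2 reads, a ratio of 0.95 (0.84 to 1.06), close to the reverse of Dusp6, while Dusp16 had 2003 and 1623 reads, a ratio of -0.37. Dusp2 had 2 and 0 reads and was too rare to test.

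Among 18 other inhibitors of the route, 1 was called higher and 0 lower, with a median of -0.03. The called gene was Spred3, the third member of the Spred family, with 190 reads in ctrl and 412 in M2, a ratio of 1.04 (0.80 to 1.30). It was under the 2-fold limit when the libraries were scaled by total reads. Lrig1, a membrane protein that promotes breakdown of ErbB receptors, had 7636 and 5013 reads, a ratio of -0.68, and Pebp1, an inhibitor of Raf, had 3338 and 3832 reads, a ratio of 0.13. The core cascade from Grb2 to the ERK-fed transcription factors lay near 0, with a median of -0.0019 over 32 genes, 1 called higher and 0 lower. The kinase gene Mapk3, which codes for ERK1, had 3327 and 2664 reads, a ratio of -0.39. The gene called was Elk3, an ETS factor downstream of ERK, with 910 and 2399 reads, a ratio of 1.33, and the adaptor Gab1 had 6732 and 3681 reads, a ratio of -0.94.

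ERK-responsive transcripts outside the 10 genes were split: 3 of 16 were called higher and 2 lower, with a median of 0.04, or -0.14 when at least 1 CPM was required in both libraries. Fos had 42339 ctrl reads and 11153 M2 reads, a ratio of -1.99 (-2.02 to -1.96), and Egr1 had 12610 and 4322, a ratio of -1.61 (-1.66 to -1.56). Both are immediate early genes, as Dusp1 is. Junb, Ier2, Ier3 and Myc of the same list, named after their values were seen, were not called. Their ratios were -0.73, -0.63, -0.14 and 0.22. In the other direction, Plaur, the urokinase receptor, had 109 and 726 reads, a ratio of 2.66, and the AP-1 subunit Fosl1 had 70 and 175, a ratio of 1.24. Hmga2, the remaining gene called higher, had 13 and 71 reads and was named after its values were seen. Phlda1, second to Fos per length in ctrl (370 against 655 RPKM) and above it in M2 (251 against 164.5 RPKM), had 22424 and 15957 reads, a ratio of -0.56.

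**Figure D5:**
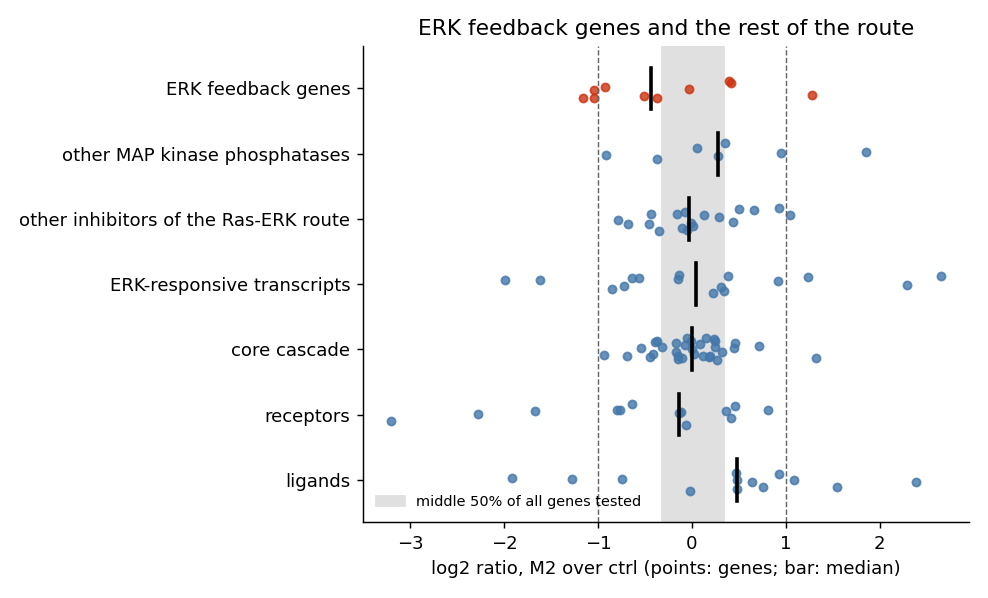
Log2 ratio of M2 over ctrl for each tested gene of the ERK feedback genes (red) and of the 6 other lists (blue), with black bars at the medians, a grey band for the middle 50% of all genes tested and dashed lines at 2-fold. The feedback genes have the lowest median, -0.44, and the core cascade lies around 0.

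Cell type markers were counted beside these values. Of 13 macrophage markers, 5 had 0 reads in both libraries and 7 had no more than 3 reads in either. The summed level of the list was 64.95 CPM in ctrl and 82.1 CPM in M2, most of it from Arg1 (54.9 and 72.5 CPM), and without Arg1, a choice made after its value was seen, it was 10.1 and 9.54 CPM. Basal markers summed to 7780 and 7708 CPM, with a median log2 ratio of -0.17 and 1 of 8 called lower (Oxtr). Luminal markers summed to 3386 and 3110 CPM, with a median of -0.44. Of these 8 luminal genes, 3 were called lower (Elf5, Esr1 and Prlr) and 2 had a ratio above 0. Of 7 fibroblast markers, 2 were called lower and 1 higher, with a median of -0.98 and a summed level of 1475 and 2187 CPM, most of it from Fn1. The 4 endothelial markers summed to 2.08 and 2.81 CPM, and of 3 tested 1 was called higher and 2 lower. Whether the mix of cell types had a part in the lower Dusp1, Spry1 and Spry2 reads was not tested.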

How the data were processed

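RNA of 1 ctrl and 1 M2 culture was compared. The deposited table holds raw read counts per gene, made by the authors without normalization, beside exon coordinates and gene length. GEO's series title calls the experiment a microarray, but the values are sequencing counts. The submitters' processing notes name GRCm38 (mm10). The aligner, counter and strand setting are not given in the sources used here, and coordinates are as the table lists them. Of the 10 genes, 6 have the start and end that GENCODE M21 gives. The names of 26 genes are listed as dates, and such genes stayed in the test without being named. Spry3 was not analysed here.

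Library sizes were scaled with TMM in edgeR 4.0.16 (factors 1.02 for ctrl and 0.980 for M2; R 4.3.3). P-values of the exact binomial test (scipy 1.17.1) were adjusted over 19233 genes after Benjamini and Hochberg. Intervals of a ratio between 2 genes are normal approximations from the 4 counts. A count of 0 allows up to 3 reads (0.109 CPM in ctrl, 0.104 in M2). The sources state no molecular identifiers, and both intervals and floors therefore hold counting error alone. The functions were tested on simulated counts. Other genes named from each list were up to 4 called genes per direction with at least 100 reads in a library, and the 2 with the highest RPKM. The genes, lists and tests were chosen with earlier results of these data known. Alternatives covered scaling, filter, pseudocount, fold limit and an assumed coefficient of variation. Promoters are from RefSeq (GRCm38.p6). Protein sequences were not used here.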

Additional observations from a re-analysis of the deposited data

How the results depend on the processing

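The 10 genes kept their direction and their call under all 8 other scalings, filters and pseudocounts (80 of 80 values). Dusp1 ran from -1.11 to -1.04, Spry2 from -1.11 to -1.04, Spry1 from -1.23 to -1.15, Dusp6 from -0.997 to -0.92 and Dusp4 from 1.21 to 1.28. Scaling by total reads moved the median of all genes by -0.06 on the log2 scale, and 51.2% to 55.6% of calls were higher over the scalings.

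The call rule mattered more. With a 4-fold limit, 0 of the 10 genes were called higher and 0 lower, as were 616 and 494 of all genes and 3 and 2 of the other lists, against 9 and 7 at 2-fold. With 1.5-fold, Dusp6 was also called lower, with 2462 and 2143 of all genes and 18 and 19 of the other lists. With at least 1 CPM in both libraries, 797 and 583 of 14590 genes tested were called, against 1570 and 1260 of 19233 with the main filter. The exactTest of edgeR with an assumed coefficient of variation of 0.2 left 1 of the 10 genes higher and 0 lower, with 964 and 691 of all genes. With 0.4 it left 0 and 0 of the 10 genes, 175 and 130 of all genes, and 0 and 0 of the other lists. The true coefficient cannot be had from 1 library a group. The share of Spred1 within the pair was 11.1 points lower in M2 on raw reads (-11.13) and 13.4 points lower per kilobase (-13.38).

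No paired analysis was possible because the series has a single library for each group. Depth limits Spry4, Dusp9 and Hmga2, which have fewer than 100 reads in each library.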

Other observations

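Ligands and receptors upstream of the 10 genes were read as a further description. Of 13 ligands tested, 3 were called higher in M2 and 2 lower, with a median log2 ratio of 0.49. The EGF receptor ligands went both ways. Areg, the amphiregulin gene that drives ductal growth, had 1137 ctrl reads and 315 M2 reads, a ratio of -1.92 (-2.11 to -1.74), and Btc had 371 and 160, a ratio of -1.28. Ereg had 139 and 427 reads, a ratio of 1.54 (1.27 to 1.84), and Hbegf had 310 and 692, a ratio of 1.09. Igf1 had 187 and 1030 reads, a ratio of 2.39. Areg stood highest per length in ctrl, at 34.1 RPKM, and Hbegf in M2, at 10.1 RPKM against 8.996 RPKM for Areg.

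Of 13 receptors tested, 0 were called higher and 3 lower, with a median of -0.14. The median was -0.39 with no filter on reads, and 2 were called lower when at least 1 CPM was required in both libraries. Kit, the receptor of stem cell factor found in luminal progenitors, had 15110 ctrl reads and 4973 M2 reads, a ratio of -1.67 (-1.72 to -1.63). Erbb4 had 158 and 17 reads, a ratio of -3.21, and Pdgfrb had 259 and 55, a ratio of -2.28. Fgfr1, below Kit per length in ctrl (35.04 against 61.73 RPKM) and above it in M2 (31.9 against 19.4 RPKM), had 9506 and 9075 reads, a ratio of -0.14, and was not called.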
